A study of Mus musculus with 9 samples.

Results

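The GTPases of immunity-associated proteins (Gimap) are a family of GTP-binding proteins encoded side by side on mouse chromosome 6. They were followed here in regulatory T cells of wild type mice and of 2 conditional Sirt1 knockouts. The members are all probe sets whose annotated gene symbol begins with Gimap. There are 6 such probe sets for 5 of the 8 genes, Gimap1, Gimap3, Gimap4, Gimap6 and Gimap7, out of 12393 genes on the array. No probe set carries the symbols Gimap5, Gimap8 or Gimap9 in the annotation used, so these genes were not analysed here. The family was chosen by the lower measured signals of Gimap6 and Gimap7 on these knockout arrays, so every difference from wild type below is a description, without a test, and the test left to the family is that between the 2 knockouts. That test uses the same knockout signals, so for Gimap6 and Gimap7 it is not free of the choice either.

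Gimap proteins sit on membranes of the endoplasmic reticulum, Golgi, lysosomes, lipid droplets or mitochondria and act mainly in lymphocytes. They are known for the survival and quiescence of mature T cells: mice without Gimap5 lose peripheral T cells and develop colitis, and mice without Gimap1 lack most mature T and B cells. Gimap4 is known to speed the death of T cells, Gimap6 to take part in autophagy through binding of GABARAPL2, and mouse Gimap3 to reside on mitochondria.

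The study measured RNA on 9 expression arrays, 3 for each of 3 genotypes of strain C57BL6. The groups are wild type, a Sirt1 conditional knockout by CD4 Cre recombinase (CD4-cre) and a Sirt1 conditional knockout by Foxp3 Cre recombinase (Foxp3-cre). Sirt1 encodes a protein deacetylase, CD4 Cre acts in T cells at large, and Foxp3 Cre acts in cells that express the lineage factor of regulatory T cells. All 9 samples are labelled as regulatory T cells positive for CD4 and CD25, separated with magnets. Neither the age of the mice, nor the part of Sirt1 removed, nor whether each sample is a separate animal, is given in the sources used. The p-values therefore measure the spread between samples, which may be technical.

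All signals are on the log2 scale, where -1 stands for a signal cut to 50%. Wild type replicate 2 stood apart, with a 5' minus 3' beta-actin signal of -1.53 against -0.68 to -0.45 on the other arrays, and the Gimap differences, the counts of the lists and markers and the Sirt1 signal are also given without it. T cell markers were at 10.93 to 11.09 on the 9 arrays. Foxp3 read 9.16 to 9.68 on wild type arrays and 9.62 to 9.69 on CD4-cre arrays. On Foxp3-cre arrays it read 2.67 to 3.38, near the array floor. Whether its probe set lies in a region changed by the Foxp3 Cre allele is not known, so Foxp3 loss is not shown. The other regulatory T cell markers Il2ra, Ctla4, Tnfrsf18, Ikzf2, Gpr83 and Izumo1r differed from wild type in Foxp3-cre by 0.12, 0.15, -0.03, 0.41, -0.10 and -0.11. In CD4-cre the same markers differed by -0.01, 0.21, 0.17, 0.57, 0.32 and -0.21. Of the 7 markers 0 passed limma's test in CD4-cre and 1, Foxp3, in Foxp3-cre, against 0.659% and 3.36% of all genes. These counts were the same without wild type replicate 2, against 2.57% and 7.63%. At an unadjusted p below 0.05 there were 3 and 1 over all 9 arrays, against 14.1% and 21.3%. The Sirt1 probe set read 7.91, 6.77 and 7.90 on wild type replicates 1 to 3, 7.59 to 7.69 on CD4-cre arrays and 7.47 to 7.66 on Foxp3-cre arrays. Over all arrays the groups overlapped, with differences from wild type of 0.10 and 0.03 (SE 0.26 each). With wild type replicate 2 left out all knockout arrays lay below wild type, on average by 0.28 in CD4-cre and 0.35 in Foxp3-cre (SE 0.07 each, limma adjusted p = 0.073 and 0.0301). The probe set checks nothing if it lies outside the removed part.

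The promoters of Gimap7, Gimap6 and Gimap3, the genes with the largest differences below, are shown to let a reader compare what lies upstream of neighbours that were lower together. Each is 300 bases from RefSeq on GRCm38.p6, from 250 bases before the start to 50 from it on. Capitals mark matches, on either strand, to short letter strings of 6 kinds (ETS, RUNX, FOXO, TCF and STAT factors and the TATA box), whose letters follow the sequences.
Gimap7 (chr6:48718371-48718670, plus strand): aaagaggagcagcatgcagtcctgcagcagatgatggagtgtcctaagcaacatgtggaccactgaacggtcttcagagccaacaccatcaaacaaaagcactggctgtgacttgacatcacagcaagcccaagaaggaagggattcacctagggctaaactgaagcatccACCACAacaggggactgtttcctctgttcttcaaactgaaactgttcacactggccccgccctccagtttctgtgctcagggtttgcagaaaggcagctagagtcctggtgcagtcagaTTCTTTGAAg
Gimap6 (chr6:48708195-48708494, minus strand): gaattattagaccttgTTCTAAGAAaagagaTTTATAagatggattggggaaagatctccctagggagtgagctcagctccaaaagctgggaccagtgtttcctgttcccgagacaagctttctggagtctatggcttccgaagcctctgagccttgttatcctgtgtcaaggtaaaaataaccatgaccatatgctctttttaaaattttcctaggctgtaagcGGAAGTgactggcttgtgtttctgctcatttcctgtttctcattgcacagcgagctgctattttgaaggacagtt
Gimap3 (chr6:48770802-48771101, minus strand): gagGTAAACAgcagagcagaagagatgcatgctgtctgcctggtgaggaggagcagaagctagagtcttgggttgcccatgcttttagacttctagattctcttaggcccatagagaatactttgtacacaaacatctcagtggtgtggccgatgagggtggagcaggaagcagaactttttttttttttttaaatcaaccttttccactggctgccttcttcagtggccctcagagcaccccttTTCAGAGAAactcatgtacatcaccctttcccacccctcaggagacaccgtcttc

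All 8 Gimap genes matched in the promoter table, with 9 promoters in all since Gimap8 has 2. The STAT string TTCNNNGAA was in 4 of the 9 promoters, those of Gimap3, Gimap6, Gimap7 and 1 of Gimap8, and in 8.3% of all 32851 promoters of this length. In Gimap7 it overlaps the TCF string CTTTGA, which 2 of the 9 hold against 16.0% of all promoters. The ETS string GGAAGT was in 4 of the 9, those of Gimap1, Gimap5, Gimap6 and Gimap9, against 23.8% of all promoters, and the RUNX string TGTGGT in 3, those of Gimap1, Gimap4 and Gimap7, against 16.8%. The FOXO string GTAAACA was in Gimap3 alone (3.65% of all promoters) and the TATA box string TATAAA in Gimap6 alone (13.6%). None of the 6 strings was shared by all 9 promoters, and such letter matches are no evidence that a factor binds.

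Gimap7, a GTPase whose human counterpart is known to stimulate GTP hydrolysis by its relatives, differed from wild type by more than any other member. The wild type arrays read 10.14, 10.28 and 9.98, the CD4-cre arrays 8.95, 9.01 and 9.19, and the Foxp3-cre arrays 8.69, 9.16 and 9.19. All 6 knockout arrays lay below all 3 wild type arrays, with a gap of 0.79 between the nearest of them. The wild type mean was 10.13 ± 0.15 and the CD4-cre mean 9.05 ± 0.12 (SD, n = 3 arrays), a difference of -1.09 (SE 0.14). In Foxp3-cre it was 9.01 ± 0.28 (SD, n = 3 arrays), a difference of -1.12 (SE 0.14). Without wild type replicate 2, the highest wild type array here, they were -1.01 and -1.04. Over all 9 arrays the signal in the knockouts was 47.1% and 46.0% of that in wild type. Ordered from the lowest difference among the 7436 genes tested, Gimap7 was number 20 in CD4-cre and number 17 in Foxp3-cre.

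Gimap6, the member tied to autophagy and the direct neighbour of Gimap7 in the cluster, followed. Wild type arrays read 10.76, 10.56 and 10.81, CD4-cre arrays 10.12, 10.25 and 10.25, and Foxp3-cre arrays 10.05, 10.14 and 10.19. Again the 6 knockout arrays lay below all wild type arrays, by at least 0.31. The differences were -0.50 in CD4-cre and -0.58 in Foxp3-cre (SE 0.09 each), or 70.6% and 66.8% of the wild type signal, and they were -0.58 and -0.66 without wild type replicate 2.

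Gimap3, the mitochondrial member, was next. Signals of 11.37, 11.60 and 11.56 on the wild type arrays stood beside 11.16, 11.06 and 11.21 on the CD4-cre arrays and 10.91, 11.09 and 11.05 on the Foxp3-cre arrays. The knockout arrays were all below the wild type arrays, with gaps of 0.16 and 0.28. The differences were -0.37 (SE 0.09) in CD4-cre and -0.49 (SE 0.09) in Foxp3-cre, which is 77.3% and 71.0% of wild type. Leaving out wild type replicate 2 gave -0.32 and -0.45.

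Gimap1, needed for mature lymphocytes in mice, differed least in CD4-cre. The arrays read 9.89, 9.70 and 9.78 for wild type, 9.67, 9.67 and 9.69 for CD4-cre, and 9.42, 9.59 and 9.48 for Foxp3-cre. The CD4-cre arrays touched the lowest wild type array and the Foxp3-cre arrays were separate from it by 0.11. The differences were -0.12 (SE 0.08) and -0.29 (SE 0.08), where the first is close to its error, and -0.16 and -0.34 without wild type replicate 2, the lowest wild type array for this gene.

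Gimap4, the member tied to T cell death, has 2 probe sets. On the brighter set wild type read 12.47, 12.10 and 12.40, CD4-cre 12.10, 12.04 and 12.19, and Foxp3-cre 11.97, 12.09 and 12.10. Wild type replicate 2 was the array that overlapped the knockouts. The differences were -0.22 (SE 0.10) and -0.27 (SE 0.10). On the other set the same array read 10.96, while wild type replicates 1 and 3 read 11.86 and 11.68; it lay below all 6 knockout arrays at 11.24 to 11.43, and the differences were -0.17 and -0.17 (SE 0.19 each). Without that array the CD4-cre differences of the sets were -0.33 and -0.44 and the Foxp3-cre differences -0.38 and -0.44, with every knockout array below the remaining wild type arrays.

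**Figure D1:**
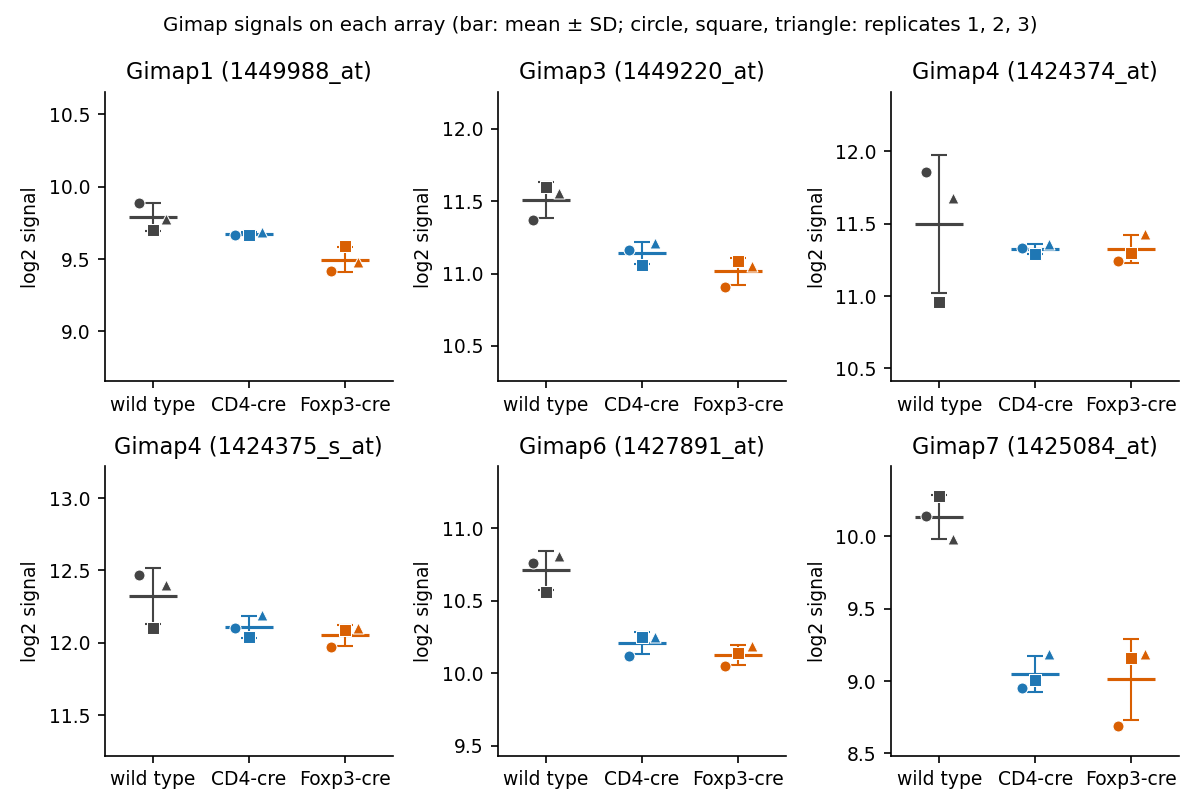
Log2 signals (y axis, each panel spanning 2 log2 units) of the 6 Gimap probe sets on the 9 arrays, by genotype (x axis), with points for replicates and bars for the mean ± SD of 3 arrays. Gimap7 at 8.69 to 9.19 in the knockouts lay below 9.98 to 10.28 in wild type, while wild type replicate 2 (square) lay within the knockout range on the brighter Gimap4 probe set and below it on the other.

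The 5 genes had a median difference of -0.37 for CD4-cre and -0.49 for Foxp3-cre, where the median over all genes tested was 0.026 and 0.006. The same 5 genes lay lower in both knockouts, but the knockouts are set against the same wild type arrays, so the second comparison is no separate support for the first. In CD4-cre 4 of 5 genes lay below wild type without overlap, against 9.16% of all genes tested. For Foxp3-cre it was also 4 of 5, against 12.2%. Without wild type replicate 2 it was 5 of 5 in both, against 21.4% and 23.2% of all genes, with medians of -0.33 and -0.45. All 6 knockout arrays lay below all wild type arrays for 4 of 5 genes, against 5.29% of all genes. These counts use the contrast by which the family was picked, and nothing is read from them.

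In gene order along the cluster the measured genes are Gimap4, Gimap6, Gimap7, Gimap1 and Gimap3, and the differences in CD4-cre were -0.22, -0.50, -1.09, -0.12 and -0.37. In Foxp3-cre they were -0.27, -0.58, -1.12, -0.29 and -0.49. The differences therefore did not grow or shrink steadily along the cluster.

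The difference between the knockouts does not involve the wild type signals, and here a test was made. Its error does, since the spread was estimated over the 3 groups. The choice of the family used the knockout signals of Gimap6 and Gimap7, so for these genes the test is not free of that choice. None of the 5 genes passed (0 of 5 at limma's Benjamini-Hochberg adjusted p below 0.05 over 7436 genes, adjusted p 0.447 to 0.974, and 0 of 5 at an unadjusted p below 0.05). Over all genes 0.0134% passed, which is Foxp3 alone, and 11.3% did unadjusted. The Foxp3-cre minus CD4-cre difference was -0.03 for Gimap7, with a 95% interval of -0.36 to 0.29, and -0.08 for Gimap6, with an interval of -0.28 to 0.12. For Gimap3 it was -0.12, between -0.33 and 0.08, and for Gimap4 -0.05, between -0.29 and 0.18. Gimap1 had the lowest, -0.18, with an interval of -0.36 to 0.00, and its 3 Foxp3-cre arrays lay below its 3 CD4-cre arrays, as for 18.8% of genes. With the knockout arrays alone in the fit that interval was -0.32 to -0.04 (SE 0.06, limma adjusted p = 0.147), so 1 of 5 genes, Gimap1, had an unadjusted p below 0.05, against 23.3% of all genes. Without wild type replicate 2 it was -0.32 to -0.04 too, with an adjusted p of 0.162, and 0 of 5 passed in either fit. The intervals leave room for a further difference in Foxp3-cre of about the size that Gimap1 and Gimap4 had against wild type, and so do not show that the knockouts were alike. Foxp3-cre replicate 1 was the lowest of the 9 arrays for all 5 genes.

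**Figure D2:**
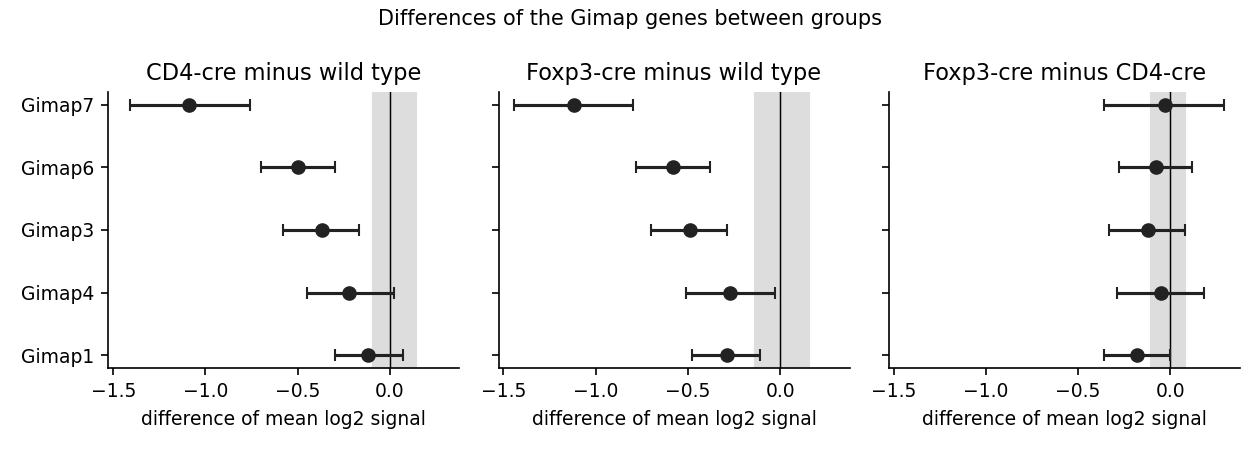
Differences of mean log2 signal (x axis) for the 5 Gimap genes (y axis) in the 3 comparisons, with 95% intervals as bars and the quartiles of all 7436 genes tested as the grey band. Gimap7 at -1.09 and -1.12 stands farthest left against wild type, and between the knockouts every interval from the fit over the 3 groups reaches 0, where that of Gimap1 ends.

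Genes that flank the cluster on the same chromosome were read next. Of the nearest 10 genes with a probe set on each side, 12 in all were bright enough to be tested. None of the 12 passed limma's test against wild type in CD4-cre or Foxp3-cre or between the knockouts, and their medians were 0.00, -0.05 and -0.03. Of all genes 0.659% passed in CD4-cre, 3.36% in Foxp3-cre and 0.0134% between the knockouts. At an unadjusted p below 0.05 there were 0, 2 and 0 neighbours, against 14.1%, 21.3% and 11.3% of all genes. These 2, Zfp777, a zinc finger gene, and Mpp6, a scaffold protein gene, stood in Foxp3-cre at -0.29 (SE 0.09) and 0.38 (SE 0.11). Next to the cluster, the transmembrane protein genes Tmem176b and Tmem176a stood at -0.07 and 0.22 in CD4-cre and at 0.01 and 0.22 in Foxp3-cre. On the other side Repin1, a zinc finger gene, stood at 0.16 and 0.18. Leaving out wild type replicate 2, 0 of 12 neighbours passed in each comparison, with medians of 0.05, -0.03 and -0.03. Unadjusted, 3, 5 and 0 did so in that fit, against 21.6%, 26.6% and 21.5% of all genes. Over all 9 arrays 6 of the 12 neighbours lay below 0 in CD4-cre and 7 in Foxp3-cre, against 43.7% and 48.9% of all genes. The largest differences among the neighbours in CD4-cre were those of Tmem176a and Mpp6, 0.22 each, and Zfp746 was also at 0.22.

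**Figure D3:**
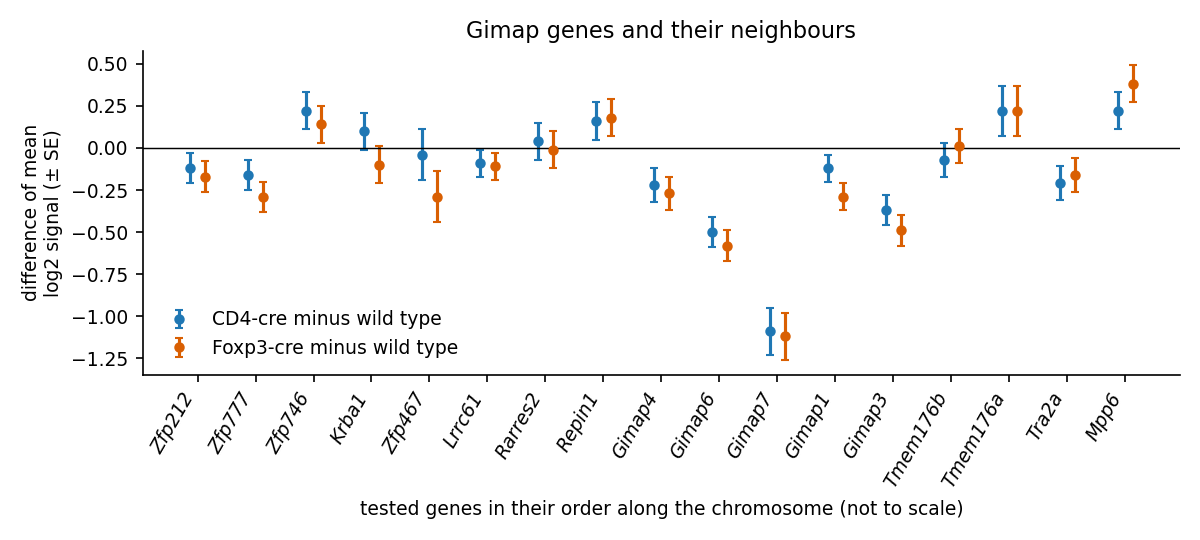
Differences of mean log2 signal from wild type with SE (y axis) for the tested neighbours and the 5 Gimap genes in their order along the chromosome (x axis, not to scale), in CD4-cre (blue) and Foxp3-cre (orange). The values around the cluster lie between -0.29 and 0.38, and Gimap7 lies at -1.09 and -1.12.

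Genes tied to the family by function were read as lists, which were chosen with earlier results of these data known. Proteins reported to bind or act with Gimap proteins comprise the BCL2 family (Bcl2, Bcl2l1, Bak1, Bad and Bcl2l11), the autophagy proteins of the GABARAP and LC3 families and the kinase Gsk3b. Of 11 tested, 0 passed limma's test in any comparison, and the medians were 0.00 for CD4-cre and -0.04 for Foxp3-cre. Gabarapl2, the binding partner of Gimap6, stood at 0.25 (SE 0.16) and 0.06 (SE 0.16), and the survival gene Bcl2 at -0.11 and -0.09 (SE 0.08 each). Bak1, a pore-forming death effector, had the lowest value of the list in CD4-cre, -0.34 (SE 0.12), and Map1lc3a in Foxp3-cre, -0.23 (SE 0.16). At an unadjusted p below 0.05 the counts were 1 in CD4-cre, Bak1, and 0 in the other comparisons. Of all genes 14.1% did so in CD4-cre, 21.3% in Foxp3-cre and 11.3% between the knockouts. None of the 11 passed without wild type replicate 2 either, where Gabarapl2 stood at 0.04 and -0.15.

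The interferon-inducible GTPases of immunity (the Irg, Gbp and Mx families), which are related to Gimap in function but not in their cluster, were a second list. Of 12 tested 0 passed limma's test in any comparison, and the medians were -0.11 for CD4-cre and -0.13 for Foxp3-cre. Unadjusted, 3 did so in CD4-cre, 3 in Foxp3-cre and 1 between the knockouts, against 14.1%, 21.3% and 11.3% of all genes. Irgm2, which guards membranes against attack by its relatives, had the lowest value in both, -0.52 (SE 0.15) and -0.63 (SE 0.15). Gbp2, a guanylate-binding protein, stood at -0.30 and -0.34 (SE 0.12 each) and Mx1, an antiviral GTPase, at -0.23 and 0.33 (SE 0.23 each). Of the 12, 2 passed in each knockout without wild type replicate 2, where 2.57% of all genes passed in CD4-cre and 7.63% in Foxp3-cre. These were Irgm2 at -0.65 and -0.76 (adjusted p = 0.0497 and 0.0208) and Gbp2 at -0.42 and -0.47 (adjusted p = 0.0438 and 0.0209).

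Genes of T cell quiescence and the naive state, the condition in which Gimap proteins are known to act, were the third list, and 12 of 17 had a value below 0 in CD4-cre and 13 of 17 in Foxp3-cre. Of all genes 43.7% and 48.9% were below 0. In Foxp3-cre 2 fell, against 1.67% of all genes, and 7 had an unadjusted p below 0.05, against 21.3%. The 2 that fell were Foxo1, a transcription factor of quiescent T cells, by 0.46 (SE 0.10, limma adjusted p = 0.0448), and Slfn2, which keeps T cells quiescent, by 0.37 (SE 0.09, adjusted p = 0.0485). In CD4-cre 0 of 17 passed (4 unadjusted, against 14.1% of all genes), where Foxo1 and Slfn2 stood at -0.39 and -0.44. The median of the list was -0.09 for CD4-cre, -0.24 for Foxp3-cre and -0.02 between the knockouts, where 0 passed (2 unadjusted, against 11.3% of all genes). Il7r, the receptor of the survival cytokine IL-7, stood at -0.09 and -0.46 (SE 0.16 each), Btg1, an antiproliferative gene, at -0.35 and -0.27 (SE 0.10 each), and Klf2, which drives homing receptors, at 0.22 and -0.08 (SE 0.11 each). The calls are close to the threshold: Foxo1 passed in 7 of 18 alternatives and Slfn2 in 6, with adjusted p up to 0.167 and 0.187. They were lost without wild type replicate 3 (adjusted p = 0.100 and 0.083), and likewise without any single CD4-cre or Foxp3-cre array. Without wild type replicate 2, 7 of 17 passed in Foxp3-cre, against 7.63% of all genes, and 3 in CD4-cre, against 2.57%. All were lower, namely Btg1, Foxo1, Lef1, S1pr1, Satb1, Slfn2 and Tob1 in Foxp3-cre and Btg1, Lef1 and Slfn2 in CD4-cre. The medians were then -0.33 in Foxp3-cre and -0.20 in CD4-cre.

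**Figure D4:**
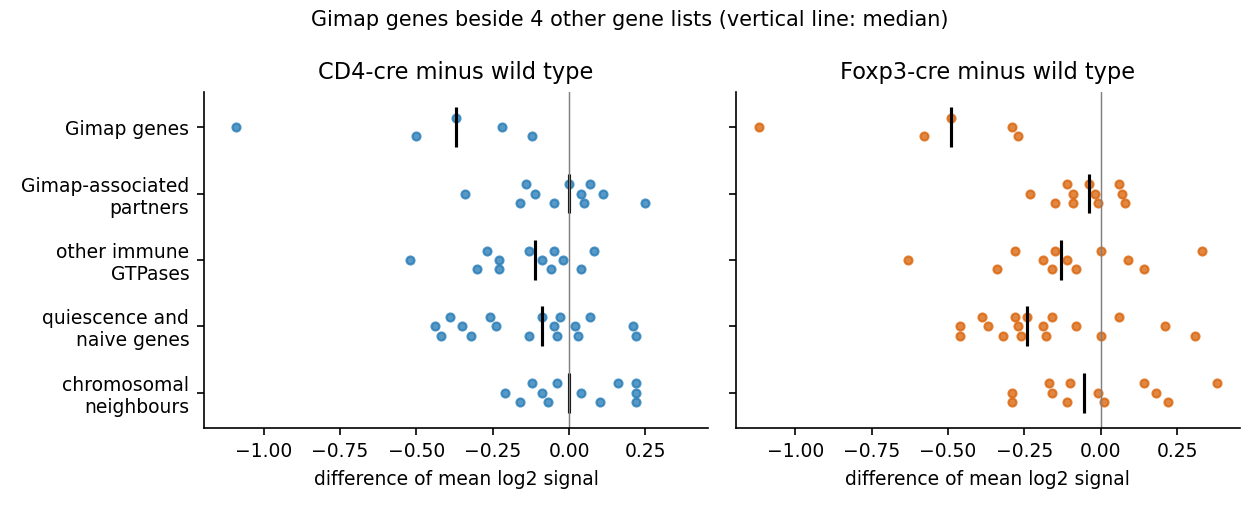
Differences of mean log2 signal from wild type (x axis) for each tested gene of the Gimap family and of 4 other lists (y axis), with a vertical line at each median, in CD4-cre (left) and Foxp3-cre (right). The Gimap median of -0.37 and -0.49 compares with -0.09 and -0.24 for the quiescence and naive genes.

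Markers of other cells were read beside these results, since in bulk samples fewer cells of a type and less RNA per cell cannot be told apart. The mean of 6 T cell markers was 10.97 to 11.09 for wild type, 10.98 to 11.06 for CD4-cre and 10.93 to 10.98 for Foxp3-cre. Over all 9 arrays 0 of 6 passed limma's test, also unadjusted, in any comparison. Without wild type replicate 2, 0 of 6 passed, but 0, 2 and 1 had an unadjusted p below 0.05, against 21.6%, 26.6% and 21.5% of all genes. In that fit 5 of 6 were lower in CD4-cre and 6 of 6 in Foxp3-cre, with medians of -0.04 and -0.07. Between the knockouts 6 of 6 were lower in Foxp3-cre, with a median of -0.08. The mean of 5 NK cell markers, another lymphocyte that uses Gimap genes, was 6.98 to 7.01 for wild type, 6.0 to 6.76 for CD4-cre and 5.74 to 6.57 for Foxp3-cre, so all knockout arrays were lower, as for the Gimap genes. The 5 genes differed in size and sign. The NK cell receptor gene Klra8 stood at -1.55 and -1.92, its relative Klrk1 at -0.76 and -0.90, and Prf1, the perforin gene, at -0.66 and -0.86. Ncr1, another receptor gene, stood at -0.33 and -0.22, and Eomes, a transcription factor gene, at 0.15 and -0.19. In Foxp3-cre 1 of 5 passed, Prf1 (3 of 5 unadjusted), and in CD4-cre 0 did (4 unadjusted). For this and the marker counts below, 3.36% of all genes passed in Foxp3-cre and 0.659% in CD4-cre. Unadjusted, 21.3% and 14.1% of all genes did. Without wild type replicate 2 the 1 that passed in Foxp3-cre was Klrk1 (adjusted p = 0.0495), and Prf1 did not (adjusted p = 0.0582), where 7.63% of all genes passed. Neutrophil markers had means of 7.78 to 8.75, 8.23 to 9.08 and 9.16 to 10.14, with 6 of 10 passing in Foxp3-cre and 0 in CD4-cre (8 and 5 unadjusted). In CD4-cre Csf3r stood at -1.53, Cxcr2 at -0.38 and S100a8 at -0.07, and the other neutrophil markers were higher, up to 1.20 for Camp. In Foxp3-cre only Csf3r was lower, at -0.33, and Camp stood highest at 2.49. Monocyte and macrophage markers were at 6.36 to 6.89, 6.13 to 7.34 and 6.94 to 8.46, where 1 of 6, the complement gene C1qb at 2.47, passed in Foxp3-cre and 0 in CD4-cre (5 and 0 unadjusted). Between the knockouts, where 0 of 5 Gimap genes passed, 0 of these neutrophil and monocyte markers passed either. There 8 of 10 and 5 of 6 had an unadjusted p below 0.05, against 11.3% of all genes, and their medians were 1.12 and 1.27 higher in Foxp3-cre. When wild type replicate 2 was left out, 5 of 10 neutrophil markers (Camp, Elane, Lcn2, Mpo and Ngp) and C1qb passed in Foxp3-cre, against 7.63% of all genes. B cell markers were at 7.56 to 8.17, 8.12 to 8.21 and 7.53 to 8.99 with 0 of 6 passing (2 in CD4-cre and 3 in Foxp3-cre unadjusted). These B cell counts were the same without wild type replicate 2. Over all 9 arrays the B cell medians were 0.34 in CD4-cre and 0.61 in Foxp3-cre. Ighm was lower, at -0.38 and -0.50, and the other tested B cell markers were higher, up to 0.77 and 1.06 for Ms4a1. Endothelium, another site of Gimap expression, was at 4.32 to 4.54 in all groups. In wild type its genes Cdh5, Tek and Vwf, too dim to be tested, were at 3.36, 2.59 and 2.81. Pecam1, Kdr and Egfl7 were at 6.87, 4.98 and 5.94, and 0 of these 3 passed in any comparison, also unadjusted. Without wild type replicate 2, 1 of 3, Pecam1, passed in Foxp3-cre at -0.29 (limma adjusted p = 0.0321), against 7.63% of all genes. It was the only 1 of the 3 that was lower there. The part of these cells in the Gimap differences was not tested.

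**Figure D5:**
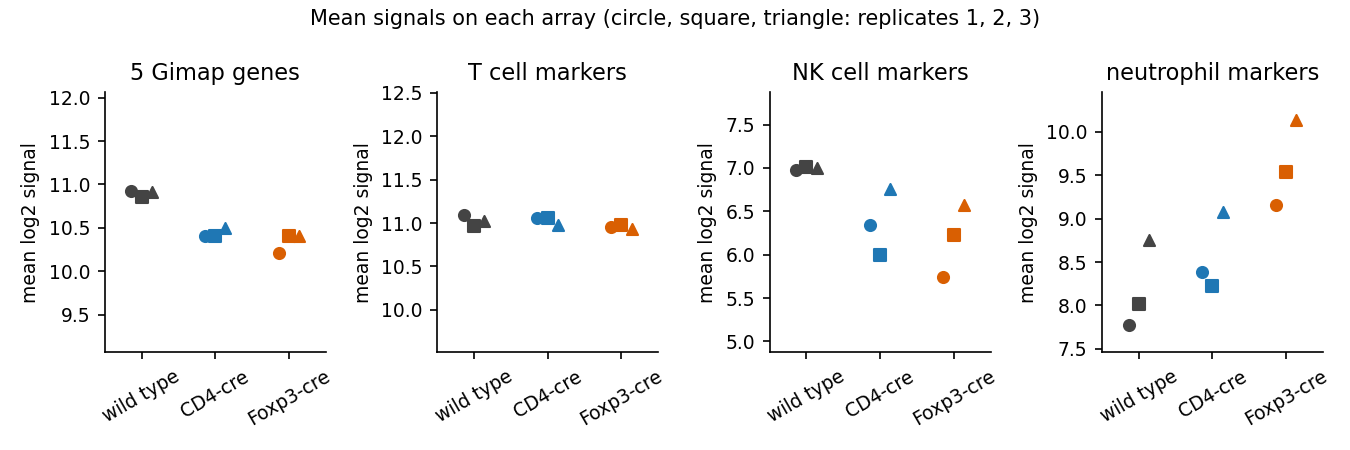
Mean log2 signal on each array (y axis, each panel spanning 3 log2 units) of the 5 Gimap genes and of T cell, NK cell and neutrophil markers, by genotype (x axis). Gimap means were 10.85 to 10.92 in wild type and 10.21 to 10.50 in the knockouts, NK cell means were lower in the knockouts too, and T cell means were within 10.93 to 11.09.

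The genes whose pattern over the 9 arrays was most like those of Gimap6 and Gimap7 are given as a description, since the arrays share their groups. For Gimap6 they were Acp5, an acid phosphatase (Pearson r = 0.979, and 0.93 after the group means were taken off), Katna1, a microtubule-severing enzyme (0.973 and 0.71), and Trip4, a transcriptional coactivator (0.968 and 0.69). For Gimap7 they were Chdh, choline dehydrogenase (0.977 and 0.79), Nfx1, a transcription factor (0.971 and 0.64), and Gpc1, a glypican (0.969 and 0.74). Among 7435 genes ordered by likeness to Gimap7, Gimap3 was number 16, Gimap6 28, Gimap1 377 and Gimap4 417. For Gimap6 the order was Gimap7 22, Gimap3 70, Gimap4 76 and Gimap1 165. Gimap6 and Gimap7, at r = 0.917 over all arrays, stood at 0.09 after the group means were taken off, and at 0.69 when wild type replicate 2 was also left out.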

How the data were processed

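RNA of 9 mouse samples was measured on 1 array each, and the authors deposited log2 signals made with RMA, per the submitters' processing notes. RMA normalizes between arrays, so a change common to all genes is lost, and it compresses differences of dim probe sets. The sources used here name neither its version nor a genome build. Of 22690 probe sets, 64 controls were left out, 20380 have 1 gene symbol, 691 several and 1555 are unnamed here. Each of 12393 genes was represented by its brightest probe set over the 9 arrays, and the 7436 genes whose mean reached the 40th percentile, 4.979, were tested. All 5 measured Gimap genes passed this filter on the mean over all arrays. Tests were two-sided and used lmFit and eBayes of limma 3.58.1 under R 4.3.3, with 1 fit over 3 groups and 6 residual degrees of freedom and with Benjamini-Hochberg adjustment over all genes tested and a threshold of 0.05. With 3 arrays a group, exact permutation cannot give a p below 0.1 and was not used. The fit was tested on simulated data. The number of arrays limits the precision: the median SE of a difference was 0.11. Members and lists were chosen with earlier results of these data known. Named genes are all members, every called gene of a list or else the 2 with the largest difference, and the 3 genes most like Gimap6 and Gimap7; other genes were chosen after their values were seen. Promoters came from RefSeq (GRCm38.p6). Alternatives covered probe set choice, the signal filter, empirical Bayes settings, array weights, the groups in the fit, centring, an RNA quality covariate, a replicate block and leaving out each array. Marker lists, Sirt1 and correlations between members without wild type replicate 2 were added after the data were seen.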

Additional observations from a re-analysis of the deposited data

How the results depend on the processing

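Under all 18 alternatives the 5 Gimap genes had a median below 0 in each comparison, between -0.44 and -0.33 in CD4-cre, -0.56 and -0.44 in Foxp3-cre and -0.12 and -0.04 between the knockouts, where 0 of 5 genes passed limma each time and Gimap7 lay between -0.12 and 0.13. Several alternatives cannot change a difference of group means, so the equal medians under them are no support. These are the signal filter, empirical Bayes settings, single probe sets and the replicate block. The same holds for fits of only the 2 groups and for leaving out an array outside the comparison. With array weights Gimap6 in CD4-cre stood at -0.60 and Gimap7 in Foxp3-cre at -0.90. The number of genes called over the whole array depended on the setting. It was 49 in CD4-cre, 250 in Foxp3-cre and 1 between the knockouts as reported, and 1298, 1539 and 812 with array weights, 196, 550 and 32 with the beta-actin 5' minus 3' covariate, and 22, 16 and 55 with only the 2 groups in the fit. Centring the arrays gave 8 between the knockouts. Leaving out 1 array gave 4 to 191 in CD4-cre, 71 to 567 in Foxp3-cre and 1 to 72 between the knockouts, and the highest of each came without wild type replicate 2. Same-numbered arrays had correlations of deviations from the group means between -0.03 and 0.49, against -0.39 to 0.32 for other numbers, and 7 of 9 arrays correlated best with their own number, which is a hint from the data and not from the design. The replicate block gave 67, 354 and 96 genes, with 0 of 5 Gimap genes between the knockouts. It leaves the Gimap differences unchanged by construction, since each group has 1 array of each number. Of the quiescence and naive genes 0 to 9 passed in Foxp3-cre. Of the chromosomal neighbours 0 to 4 passed in Foxp3-cre and 0 to 1 in CD4-cre. For the interferon-inducible GTPases it was 0 to 4 and 0 to 3. The Gimap partners had 0 in Foxp3-cre and 0 to 1 in CD4-cre. Each highest count above 0 came with array weights, where 1539 genes in Foxp3-cre and 1298 in CD4-cre passed over the whole array. The cause of these shifts was not tested. Signals after RMA carry no measure of background, and Gimap5, Gimap8 and Gimap9 were not analysed here.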

Other observations

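Wild type replicate 2, the array whose 5' minus 3' control signals were lowest, was the lowest wild type array for Gimap1, Gimap4 and Gimap6 and the highest for Gimap3 and Gimap7. How the members varied together within groups depended on it. After the group means were taken off, the correlations over the 9 arrays ran from -0.15 to 0.81. Gimap4 and Gimap6 (r = 0.81) and Gimap1 and Gimap4 (r = 0.79) were highest, while Gimap3 stood at -0.15 with Gimap1 and Gimap4 and at -0.11 with Gimap6. Gimap7 stood at 0.57 with Gimap3, 0.30 with Gimap1, 0.09 with Gimap6 and 0.07 with Gimap4. Without that array all 10 pairs were above 0, from 0.18 for Gimap1 and Gimap3 to 0.88 for Gimap4 and Gimap7, and Gimap4 and Gimap6 stood at 0.41. These are descriptions of 9 and 8 arrays that share their groups, and the part of RNA quality was not tested.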
